A study of Homo sapiens with 12 samples.

Results

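Olfactory receptors are G protein-coupled receptors that detect odorants in the sensory neurons of the nose. Their genes form the largest gene family of mammals, lie in clusters on many chromosomes and are silent in most cell types outside the olfactory epithelium. In mouse olfactory neurons, receptor genes are known to be packed in heterochromatin that carries trimethylated lysine 9 of histone H3 (H3K9me3). The monomethylated form of the same residue, H3K9me1, is a step on the way to higher methylation and is also found over transcribed genes. All of these marks draw their methyl groups from S-adenosylmethionine (SAM), which cells make from methionine.

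Described here are the H3K9me1 regions in 6 olfactory receptor clusters of HCT116, an established line of human colorectal carcinoma cells. The 4 H3K9me1 ChIP-seq libraries (chromatin immunoprecipitation with sequencing) came from cells of passage 19. Of these, 2 were made after 24 hr in RPMI-1640 medium free of methionine (restricted A and B) and 2 from control cells at 0 hr in ordinary RPMI-1640 (control A and B), with fetal bovine serum in both media. All controls are of 0 hr, and the effect of restriction cannot be told apart from that of the time that passed. Nothing in the labels shows A and B to be separate cultures: the spread behind each p-value is that of these libraries and could be technical. For H3K9me1, the labels give the condition only as the time in the sample's title.

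The clusters were set by hand as hg19 windows, and a region was a member when its midpoint fell inside one. The windows were chr1:158300001-159000000 (1q23), chr1:247600001-248900000 (1q44), chr6:29000001-29600000 (6p22), chr7:143100001-144000000 (7q35), chr12:55500001-55950000 (12q13) and chr17:2900001-3400000 (17p13). Together they span 4.45 Mb. The 1 Mb on each side served for comparison, 11.3 Mb in all, since the flank of 1q44 towards the chromosome end is cut to 340 kb. Of 387436 and 760945 listed regions in restricted A and B, 567 and 1237 were members, against 780 of 661085 and 1008 of 454516 in control A and B. These totals are not alike in extent: the lists hold regions on 21 and 19 chromosomes for restricted A and B, and on 20 and 10 for control A and B. The flanks held 2060 and 3965 regions in the restricted libraries, against 3598 and 4261 in the control libraries.

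The receptor genes of each stretch were taken by name and order from RefSeq (GRCh38.p14), without placing them on hg19. In that order, 107 coding receptor genes and 62 receptor pseudogenes lie in the 6 runs. The run at 1q44 has 43 coding receptors from OR2B11 to OR14I1, most of them OR2 genes, and holds GCSAML and TRIM58 among them. The run at 1q23 has 13, all OR6 or OR10 genes. The run at 12q13 has 15, most of them OR6C genes, with no other coding gene between them. At 6p22 there are 14 receptors before GABBR1, a subunit of the GABA-B receptor, with MAS1L and UBD among them. The 11 coding receptors at 7q35 are OR2A and OR2F genes and OR6B1, mixed with 7 other coding genes, which include CTAGE family members, TCAF1 and TCAF2. The 11 at 17p13 are OR1 and OR3A genes with no other coding gene between them. Receptors of a run are close paralogs, and how reads that match several copies were placed is not given in the sources used here.

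In all 4 libraries the 6 clusters, pooled, held less H3K9me1 than the DNA on either side. Regions covered 4.66% and 12.7% of the clusters in restricted A and B, and 7.12% and 9.58% in control A and B. In the flanks they covered 7.44% and 17.1% in the restricted libraries, against 15.5% and 19.6% in the control libraries. The covered share of the clusters was thus 0.626 and 0.745 of that of the flanks in restricted cells, and 0.460 and 0.489 in control cells. The mean log2 ratio of cluster to flank was -0.81 ± 0.32 (SD, n = 4). It was below 0 in 4 of 4 libraries, with an exact two-sided sign-flip permutation p of 0.13, the smallest that 4 libraries allow. By number, restricted A and B listed 127 and 278 regions per Mb in the clusters (exact 95% Poisson intervals 117 to 138 and 263 to 294), against 175 and 227 (163 to 188 and 213 to 241) in control A and B. In the flanks there were 182 and 350 (174 to 190 and 339 to 361) in the restricted libraries, against 317 and 376 (307 to 328 and 365 to 387) in the control libraries. These intervals cover counting error only.

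The 6 clusters differed widely in how far they lay below their flanks. The contrast was deepest on chromosome 1: the mean log2 ratio was -1.70 ± 0.56 at 1q44 and -1.43 ± 0.66 at 1q23 (SD, n = 4). It was -0.87 ± 0.29 at 12q13 and -0.46 ± 0.23 at 6p22, and each of these 4 clusters lay below its flanks in 4 of 4 libraries (exact permutation p = 0.13 each, 0.188 after Benjamini-Hochberg adjustment over the 6 clusters). At 17p13 it was -0.29 ± 0.44 (exact permutation p = 0.375) and at 7q35 -0.02 ± 0.22 (exact permutation p = 1). The spread over the 4 libraries includes that between conditions. In control A and B both clusters lay below their flanks, with -0.62 and -0.67 at 17p13 and -0.186 and -0.184 at 7q35. Restricted A and B had -0.12 and 0.25 at 17p13, and 0.27 and 0.007 at 7q35. With flanks of 0.5 Mb, however, 7q35 lay below them in 4 of 4 libraries, at -0.29 (exact permutation p = 0.13). Between neighbours in this order, 12q13 lay below 6p22 in 4 of 4 libraries, by 0.41 ± 0.13 on the log2 scale. 1q44 lay below 1q23 in 4 of 4 libraries as well, but by 0.26 ± 0.33, less than the spread. The order of 1q23 and 12q13 held in 3 of 4 libraries, that of 6p22 and 17p13 in 2, and that of 17p13 and 7q35 in 3.

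To compare libraries whose lists differ in length, the covered share of a window was divided by the covered share of chromosomes 1, 2, 6, 7, 10, 12, 16 and 17, the 8 that all lists hold. These shares were 5.72% and 14.8% in restricted A and B, and 12.4% and 15.1% in control A and B. The quotient is called relative density, and a value of 1 is the level of the 8 chromosomes. The clusters had relative densities of 0.816 and 0.860 in the restricted libraries, and 0.573 and 0.632 in the control libraries. Both restricted libraries lay above both control libraries. The means were 0.838 ± 0.031 in restricted and 0.602 ± 0.042 in control cells (SD, n = 2 each), a log2 difference of 0.48 ± 0.08 (SE). The exact two-sided permutation p of 0.33 is the smallest that 2 against 2 libraries allow, so no single value here could pass 0.05. Within a mark the letter coincides with the sequencing lane, and the log2 difference was 0.51 within A and 0.44 within B. Restricted B and control B cover nearly the same share of the 8 chromosomes, and their clusters had 12.7% and 9.58% covered.

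**Figure D1:**
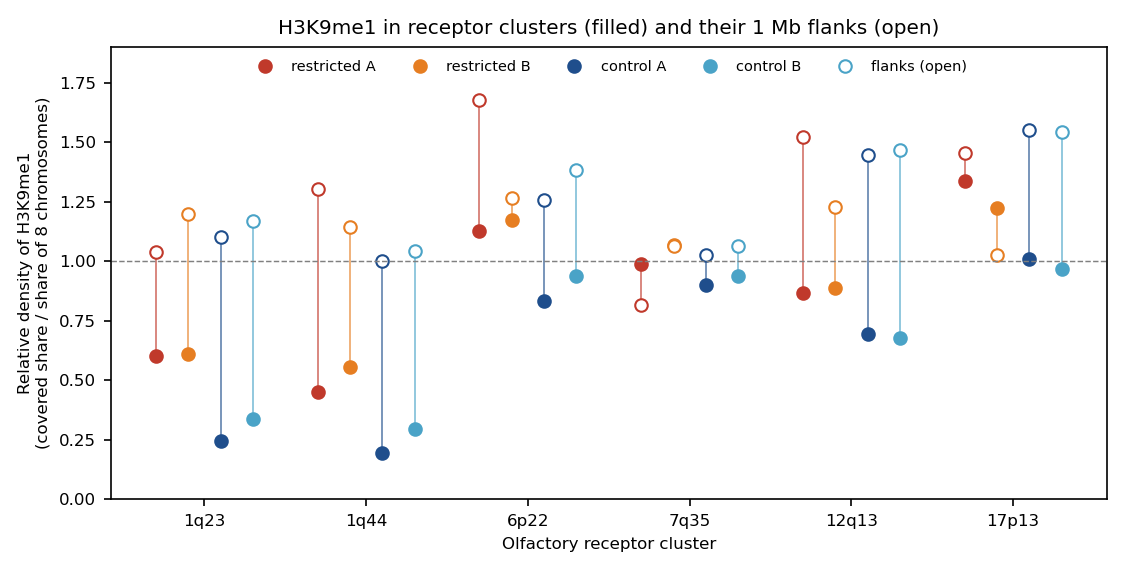
Relative density of H3K9me1 (covered share over that of the 8 shared chromosomes) for each receptor cluster on the x axis, with one filled point per library for the cluster and one open point for its flanks; thin lines join the 2 points of a library. In all 6 clusters both filled restricted points lie above both filled control points, and the lowest values are those of the control libraries at 1q44 (0.193 and 0.294) and 1q23 (0.245 and 0.336).

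The same separation was seen in each of the 6 clusters. At 1q23 the relative density was 0.600 and 0.611 in restricted A and B, against 0.245 and 0.336 in control A and B. At 1q44 it was 0.451 and 0.555 in the restricted libraries, against 0.193 and 0.294 in the control libraries. These clusters had the largest differences, 1.08 ± 0.23 and 1.07 ± 0.34 (log2, SE). At 6p22 the values were 1.13 and 1.17 in restricted and 0.833 and 0.939 in control libraries. At 12q13 they were 0.864 and 0.886 in restricted and 0.693 and 0.679 in control libraries. At 17p13 they were 1.34 and 1.22 in restricted and 1.01 and 0.967 in control libraries. The log2 differences of these 3 clusters were 0.38, 0.35 and 0.37. With lists cut to 186609 regions each, the difference at 12q13 was 0.81. The smallest difference, 0.16 ± 0.06, was that of 7q35, with 0.988 and 1.07 in restricted and 0.901 and 0.938 in control libraries. Each of the 6 has an exact permutation p of 0.33, also after adjustment over the 6 clusters.

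These differences depend on the scaling. As plain covered share, without the divisor, the clusters did not separate the conditions (12.7% in restricted B and 4.66% in restricted A lie on both sides of the control values), and the log2 difference was -0.10 (exact permutation p = 1). A comparison of each cluster with its own flanks needs no divisor. The flanks, pooled, had relative densities of 1.30 and 1.15 in the restricted libraries, and 1.24 and 1.29 in the control libraries. Their log2 difference was -0.05 ± 0.09 (SE, exact permutation p = 1), and without restricted B it was 0.0385. By cluster, the flanks of 1q44 were also denser in both restricted libraries (log2 difference 0.26), and those of 17p13 less dense (-0.34). The log2 ratio of cluster to flank was higher in both restricted libraries, by 0.53 ± 0.13 (SE, exact permutation p = 0.33). That is a 1.44-fold higher ratio, 1.36-fold within A and 1.52-fold within B. By cluster, the ratio was higher in both restricted than in both control libraries at 5 of 6. No share over other windows was computed for this ratio. At 1q23 it was 0.577 and 0.509 in restricted libraries, against 0.222 and 0.288 in control libraries. At 17p13 it was 0.921 and 1.19 in restricted libraries, against 0.651 and 0.628 in control libraries. At 6p22 the groups overlapped in part: the ratio was 0.673 and 0.929 in restricted libraries, against 0.662 and 0.679 in control libraries.

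**Figure D2:**
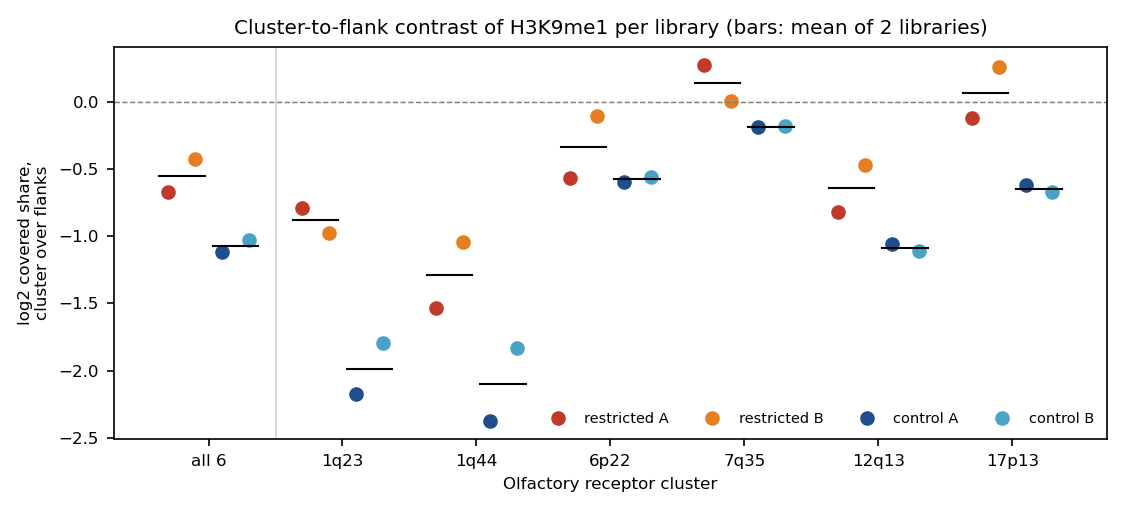
The log2 ratio of the covered share of the clusters to that of their flanks (y axis), pooled over the 6 clusters and for each one, with a point per library and a bar at the mean of the 2 libraries of a condition. Pooled, the restricted libraries sit at -0.67 and -0.43 and the control libraries at -1.12 and -1.03; at 6p22 the lower restricted point lies between the control points.

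Bins of low density lay mostly in the clusters of chromosome 1. In bins of 100 kb, 17 of 44 cluster bins had a relative density under 0.5 in restricted A and 8 in restricted B, against 22 in control A and 19 in control B. Of these, 15 in restricted A and 8 in restricted B, against 19 in control A and 18 in control B, were among the 20 bins of 1q23 and 1q44. No bin of 12q13 or 17p13 was under 0.5 in any library. Over all 6 clusters this is 38.6% and 18.2% of the cluster bins in restricted A and B, against 50% and 43.2% in control A and B. Over all 12120 bins tested the shares were 17.8% and 8.99% in the restricted libraries, against 22.6% and 21.7% in the control libraries. In the flanks they ran from 4.42% to 7.96%. At 1q44 the first 100 kb of the window (chr1:247600001-247700000) still had 1.07 and 1.34 in restricted libraries, against 0.758 and 1.19 in control libraries. From chr1:247900001-248000000, with 0.0922 and 0.311 in restricted and 0.020 and 0.0603 in control libraries, to the window's end no bin reached 0.5 in either control library. At 6p22 the density differed between the ends of the window: its last 100 kb (chr6:29500001-29600000) had 1.85 and 2.01 in restricted libraries, against 1.47 and 1.59 in control libraries. The 3 longest stretches in which no library listed a region were chr7:143347611-143398235 (50.6 kb) in the 7q35 cluster, chr7:142276139-142326280 (50.1 kb) in its flank and chr1:248907603-249058415 (151 kb) in the flank of 1q44. Assemblies hold unsequenced gaps to which no read can be assigned, and these stretches are not read as low H3K9me1, nor is the bin chr7:143300001-143400000 that holds the first of them. The counts of low bins above still include that bin, with 0.213 in restricted A, 0.306 in control A and 0.431 in control B. With these stretches taken out of the window lengths, the mean log2 ratio of cluster to flank was -1.87 at 1q44 and 0.0245 at 7q35. The longest stretch without a region at 1q44 was 63.7 kb in restricted A and 37.5 kb in restricted B, against 122 kb in control A and 75.3 kb in control B.

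**Figure D3:**
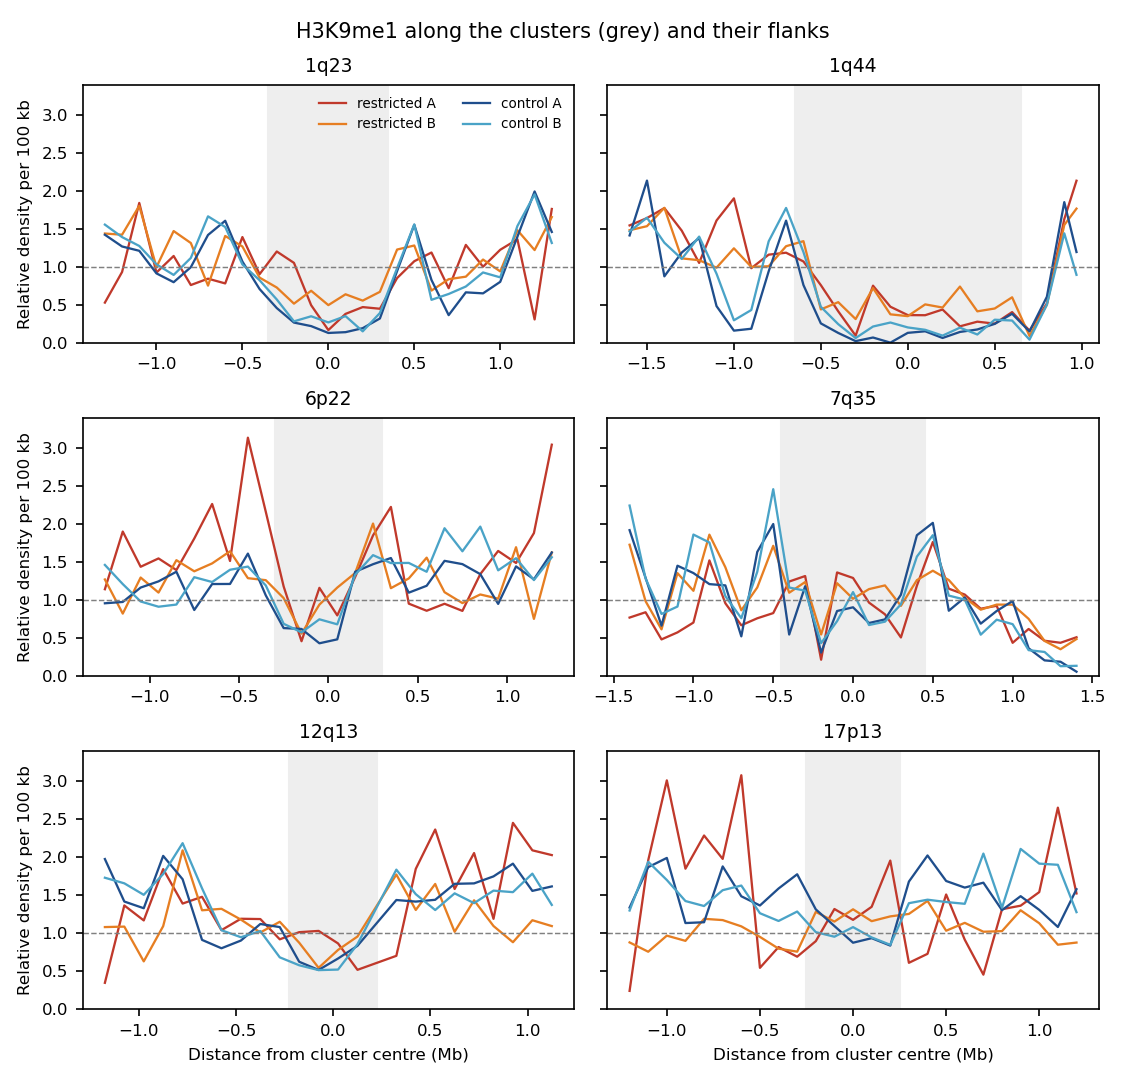
Relative density of H3K9me1 in 100 kb bins (y axis) against distance from the centre of each cluster in Mb (x axis), 1 line per library, with the cluster shaded and a dashed line at 1. The lines dip in the shaded window at 1q44 and 1q23 in all 4 libraries, lower over most of it in the control libraries; the low point just right of the window at 1q44 lies in a stretch where no library lists a region, and no dip as deep is seen at 17p13.

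Bin by bin, the difference between conditions did not pass the threshold in the clusters. With all 4 libraries, limma without a term for the letter called 0 of 44 cluster bins at an adjusted p under 0.05 (Benjamini-Hochberg over all 12120 bins), where it also called 0% of all bins. At an unadjusted limma p under 0.05, 12 of 44 cluster bins were higher and 0 lower in the restricted libraries, beside 13.5% of all bins that were higher and 20.8% that passed in either direction. This count was 3 after quantile normalization, beside 4.14% of all bins, and 0 with no scaling, beside 0.322%. Without restricted B, 6 cluster bins were called (5 higher, 1 lower), where 23.5% of all bins were. The log2 difference was above 0 in 37 of 44 cluster bins, with a median of 0.54, beside 58.1% of all bins and a median of 0.10. In 31 of 44 cluster bins both restricted libraries lay above both control libraries, beside 32.9% of all bins, and in 3 below, beside 20.2% of all bins. With no scaling, 25 of 44 differences were above 0, with a median of 0.08, beside 25.0% of all bins and a median of -0.40. In 4 of these cluster bins (9.09%) both restricted libraries lay above both control libraries, beside 7.13% of all bins. After quantile normalization the median was 0.23 in the cluster bins and 0.06 over all bins. All 13 bins at 1q44 and all 7 at 1q23 had a difference above 0. Among tested bins with a mean relative density under 0.5, 94.4% of all bins and 17 of 18 cluster bins did. In simulated bins, the fit found 0.5% of 200 bins changed by 1 on the log2 scale and 98% of those changed by 2. False calls numbered 3 and 26. Each bin's spread there was drawn towards a common value and was more even than in the data. Real bins may thus be found less often: the flank bin chr1:247200001-247300000, with a log2 difference of 2.36, was not called (limma adjusted p = 0.137). A change near the cluster median was hardly detectable in a single bin.

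By the rule for named bins, the largest differences with groups that do not overlap all lay at 1q44. The bin chr1:248000001-248100000 had 0.750 and 0.719 in restricted A and B, against 0.0675 and 0.212 in control A and B (log2 difference 1.87, SE 0.44, limma adjusted p = 0.137). The bin chr1:248400001-248500000 had 0.436 and 0.462 in restricted libraries, against 0.0615 and 0.0924 in control libraries (1.64). The bin chr1:248100001-248200000 had 0.473 and 0.373 in restricted libraries, against 0 and 0.265 in control libraries (1.45). Bins on the lower side lay at 7q35 and 6p22, and their differences were smaller. The bin chr7:143800001-143900000 had 0.506 and 0.922 in restricted libraries, against 1.07 and 0.942 in control libraries (log2 difference -0.49). The neighbouring bin chr7:143900001-144000000 had 1.19 and 1.26 in restricted libraries, against 1.85 and 1.57 in control libraries (-0.45). The bin chr6:29100001-29200000 had 0.456 and 0.557 in restricted libraries, against 0.618 and 0.573 in control libraries (-0.20).

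Sparse bins had a higher relative density in the restricted libraries across the 8 chromosomes, not in the receptor clusters alone. Of all tested bins, 1883 had a mean relative density over the 4 libraries of under 0.5, and in 77.1% of them both restricted libraries lay above both control libraries. Of the 18 cluster bins under that limit the number was 14 (77.8%). The median log2 difference was 0.87 in these cluster bins and 1.09 in all such bins. The median relative density of these cluster bins was 0.391 and 0.518 in the restricted libraries, against 0.145 and 0.254 in the control libraries. Over all such bins it was 0.397 and 0.493 in restricted, against 0.0977 and 0.191 in control libraries. Among bins of density 1 to 1.5, which include all 5 of 17p13, 9 of 12 cluster bins had a difference above 0, with a median of 0.27, beside 40.5% and -0.10 over all 4905 such bins. The limit of 0.5 was chosen after the data were seen, and no test was run on these groups. These values also rest on the divisor. With no scaling, both restricted libraries lay above both control libraries in 864 of all 12120 bins. With scaling, 1452 sparse bins alone did so. Sparse bins were not counted apart without scaling.

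**Figure D4:**
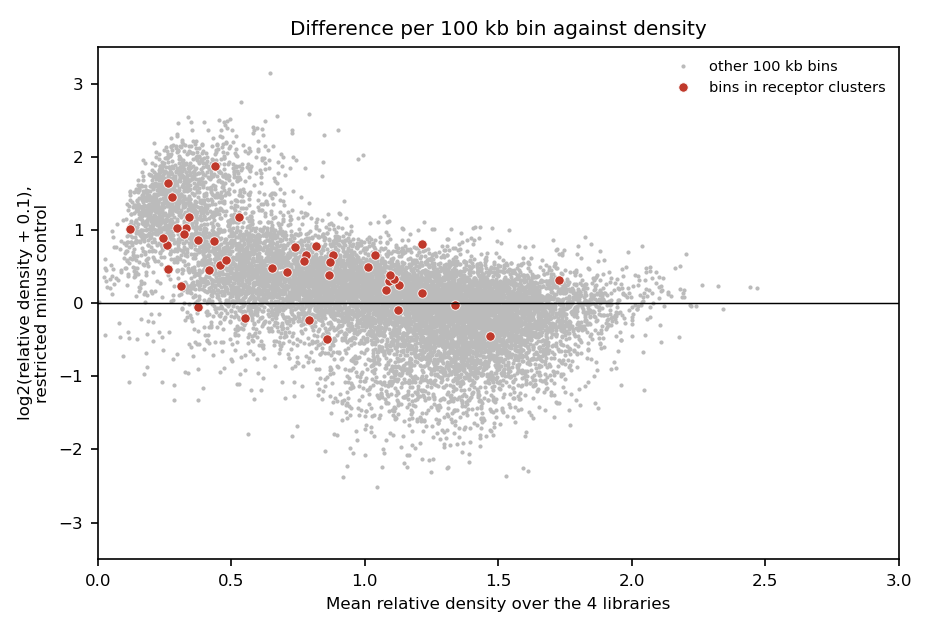
Difference in log2(relative density + 0.1), restricted minus control (y axis), against mean relative density over the 4 libraries (x axis), for 12120 bins of 100 kb; the 44 bins of the receptor clusters are red and the others grey. Sparse bins lie mostly above 0, and the red points of low density lie within the grey ones.

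The member regions were short and weak in every library, as were the listed regions of the 8 chromosomes. The members' median length was 295 and 364 bp in restricted A and B, against 326.5 and 335 bp in control A and B. Flank regions were longer in each library, with medians of 339 and 387 bp in restricted and 385 and 410 bp in control libraries. Over the 8 chromosomes the medians were 324 and 377 bp in restricted and 372 and 386 bp in control libraries. The caller's fold enrichment over background, the authors' own value for each region, had medians of 1.85 and 1.81 in restricted and 1.96 and 1.81 in control members. All regions of the 8 chromosomes had medians close to these, 1.85 and 1.84 in restricted and 1.98 and 1.82 in control libraries. A −log10 p of at least 2 was reached by 4 of 567 (0.705%) and 11 of 1237 (0.889%) members in the restricted libraries, against 23 of 780 (2.95%) and 3 of 1008 (0.298%) in the control libraries. Over the 8 chromosomes these shares were 0.667% and 0.884% in restricted and 4.28% and 0.858% in control libraries. The strongest members reached a −log10 p of 2.61 (chr7:143920954-143921075) in restricted A and 2.92 (chr6:29423875-29424172) in restricted B. They reached 2.83 (chr7:143987787-143987970) in control A and 2.49 (chr7:143681085-143681257) in control B. The highest values anywhere in these lists were 11.5 and 4.91 in restricted A and B, and 5.53 and 3.96 in control A and B.

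Few single sites recurred. Merged over the 4 libraries, the clusters held 2336 regions, of which 1534 (65.7%) came from 1 library and 69 (2.95%) were present in all 4. In the flanks these shares were 54.6% and 5.59%, and over the 8 chromosomes 59.1% and 4.64%. At 7q35 30 merged regions were in all 4 libraries, at 1q44 2 and at 1q23 none of 307. The widest in all 4 was chr7:143214792-143218853, with 0.355 and 1.19 kb under regions in restricted libraries, against 1.06 and 3.26 kb in control libraries. The next were chr17:2968541-2972574, chr7:143529101-143532948, chr6:29536215-29539409 and chr7:143538253-143540917. Of the merged cluster regions 79 (3.38%) were in both restricted and no control library, beside 2.61% over the 8 chromosomes. In both control and no restricted library were 89 (3.81%), beside 5.87%.

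The widest regions of these 2 classes were all under 2 kb. Restricted-only were chr7:143164399-143165935 (0.318 and 1.29 kb in restricted A and B), chr1:158454800-158456307 (0.984 and 0.596 kb) and chr17:3098887-3100297 (0.207 and 1.39 kb). Control-only were chr17:2954576-2956324 (0.742 and 1.44 kb in control A and B), chr6:29555059-29556776 (1.2 and 1.15 kb) and chr7:143924095-143925805 (0.726 and 1.71 kb). Of the cluster sequence under regions in restricted A and B, 23.4% of the A list and 8.58% of the B list were shared. For control A and B, 23% of the A list and 17.1% of the B list were shared. Among pairs of unlike condition, restricted B shared 17.2% of its list with control B and 14% with control A. This was 22.8% of the control B list and 24.9% of the control A list. Restricted A shared 18.3% of its list with control B and 14.7% with control A, or 8.93% and 9.57% of those control lists. Such shares also depend on how much each list covers, which was not corrected for.

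H3K9me3 peaks in the clusters were few and stood in 2 of the 6. Restricted A and B listed 4 and 2 of them, against 3 and 2 in control A and B. This is 0.899 and 0.449 per Mb in restricted libraries, against 0.674 and 0.449 in control libraries. Over the 8 chromosomes the same lists held 0.642 and 0.205 per Mb in restricted, and 0.457 and 0.279 in control libraries. None lay in the windows at 1q23, 6p22, 7q35 or 12q13. The flanks held 13 and 4 peaks in restricted libraries, against 8 and 2 in control libraries. Per Mb of flank these were 1.15 and 0.353 in restricted, and 0.705 and 0.176 in control libraries. The rate in the clusters was thus below that of the flanks in both A libraries and above it in both B libraries. It was above that of the 8 chromosomes in every library, though each cluster rate rests on few peaks.

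Both recurrent H3K9me3 sites lay at 1q44, among the bins of low H3K9me1. The site chr1:248327585-248328496 was listed in restricted A, restricted B and control B, with fold enrichments of 2.92 and 2.64 in restricted and 3.15 in control cells. The site chr1:248469769-248470221 was listed in restricted A, restricted B and control A, with 2.89 and 3.06 in restricted and 2.73 in control cells. Each was thus present in both restricted libraries and in 1 control library. Others were listed once: chr1:248416370-248416708 (3.47) in restricted A, chr1:248597298-248597599 (4.03) in control A and chr1:248099724-248100831 (3.19) in control B. At 17p13 restricted A had chr17:3274567-3275311 (3.58) and control A had chr17:2946907-2947478 (3.21). The −log10 q of these 11 peaks ran from 1.26 to 2.85. Of the 11, 5 overlapped an H3K9me1 region of the same time and letter, beside 16 of 27 peaks in the flanks. The 745 bp peak at 17p13 in restricted A lay wholly under such a region.

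**Figure D5:**
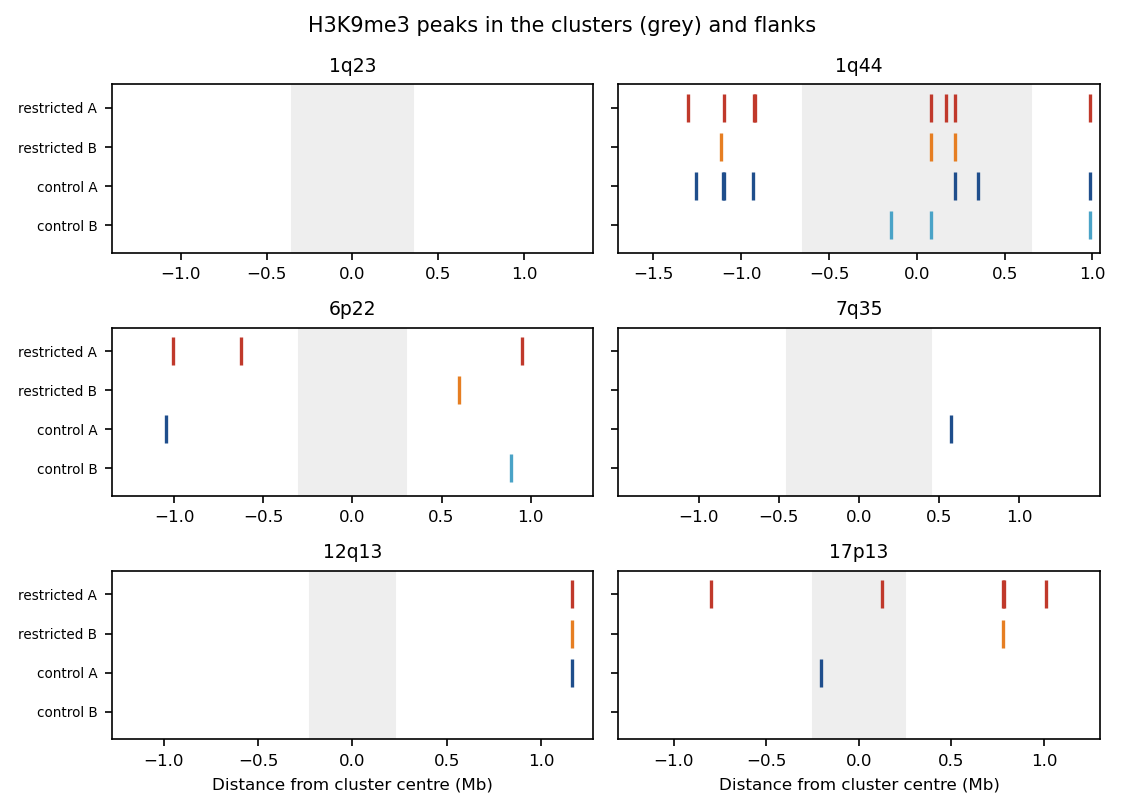
Positions of H3K9me3 peaks (ticks) in each of 4 libraries, against distance from the cluster centre in Mb; the cluster is shaded. Inside the shaded windows, ticks appear at 1q44 and 17p13, and those at 2 sites of 1q44 recur in 3 libraries each.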

How the data were processed

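Peak lists of 4 H3K9me1 and 4 H3K9me3 libraries were used; input files were not analysed here. The submitters' processing notes name hg19 as the build, and MACS2 2.1.1.20160309, SAMtools 1.5 and Bowtie2 2.1.0 as tools. Broad regions were called per library, per the file headers, and the input used had the library's own time and letter, so both marks share inputs. H3K9me1 had p cutoffs of 0.0001 (strong) and 0.1 (weak), a permissive setting, on 39452512 and 35134998 reads (restricted A, B) and 30952210 and 31683422 (control A, B). H3K9me3 had q cutoffs of 0.05 and 0.1, on 33801853 and 35023269 reads (restricted A, B) and 35736289 and 33503018 (control A, B). For each region the authors' caller gives means: the deposited pileup, a signal of read coverage, −log10 of the deposited p (for H3K9me3 also of q), and a fold enrichment, deposited as a ratio to local background. A covered share has no count behind it here, so it is printed without a counting interval.

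Covered share is the summed length of regions with midpoint in a window over its length. Each chromosome was taken to end where the last region of any list ends. Single values were compared by exact permutation tests. Bins of 100 kb with a region in at least 2 libraries were fitted with limma 3.58.1 (trend, robust) on log2(relative density + 0.1), which understates changes of sparse bins; adjusted p are Benjamini-Hochberg over all bins. Interval code matched base-by-base counting in all 300 random sets. Named were all clusters, in each direction the called bins or, with fewer than 3 called, the 3 largest differences without overlap, the widest merged regions and the strongest member per library. The clusters, lists and tests were chosen with earlier results of these data known. Alternatives were stricter thresholds, equal list lengths, clipping, flank and bin sizes, pseudocounts, scalings, filters, merging rules, the letter as a block and leaving out each library. No genome or gene annotation of hg19 was used, so no sequence is printed and regions are not assigned to exons, introns or UTRs.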

Additional observations from a re-analysis of the deposited data

How the results depend on the processing

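Without scaling, the pooled log2 difference of the clusters turned to -0.10, and that of single clusters to -0.20 at 6p22, -0.42 at 7q35, -0.23 at 12q13 and -0.20 at 17p13; over all bins no scaling moved the median difference from 0.10 to -0.40, and cluster bins stayed 0.49 above it. With regions of −log10 p of at least 2, 7q35 had -0.31, and the other clusters gave no value because a library had no such region there. The cluster-to-flank ratio kept its direction pooled, both its level (-1.70 to -0.56 over 12 alternatives) and its difference between conditions (0.37 to 0.66 over 12). At 7q35 the level was 0.0556 by regions per Mb and 0.0245 without the longest stretches that hold no region in any library. It was -0.29 with flanks of 0.5 Mb and -0.12 to 0.0323 when each library was left out. Leaving out each library gave 0.41 to 0.55 for cluster density, -0.13 to 0.0385 for flank density and 0 to 6 called cluster bins (6 without restricted B). With the letter as a replicate block 2 cluster bins were called, both higher, and 4.05% of all bins; deviations of same-letter libraries correlated at -0.0998, so the letters were not taken as pairs. Condition-only regions numbered 41 and 56 (restricted-only and control-only) when presence needed 0.5 of a merged region, and 0 and 0 at −log10 p of at least 2. With −log10 q of at least 2, 4 H3K9me3 peaks were left of 11. With equal list lengths the density difference was 1.53 at 1q23, 1.5 at 1q44 and 0.81 at 12q13. Alternatives chosen after seeing the data were stretches without regions, regions per Mb, the cluster interior, restricted B against control B and the density limit. Weak H3K9me1 regions that seldom recur, and few H3K9me3 peaks, limit what single sites can show.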
